A study of Mus musculus with 2 samples.

Results

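The cells described here were the keratin-bearing barcodes of low RNA content in 2 single-cell RNA libraries of mouse tumors: 466 of 23657 barcodes, 367 of 16115 from Olaparib + LLY-283 (OL) and 99 of 7542 from Combo. Members were chosen by measured values: at least 200 genes detected, mitochondrial transcripts under 20% of UMIs (unique molecular identifiers, each counting 1 captured RNA molecule), under 2000 UMIs in all, at least 1 UMI of Krt8 or Krt18, and none of Tyrobp, Ptprc, S100a8, S100a9 or Col5a2. They are called low cells below. Keratin cells that met the same conditions with 2000 or more UMIs were the reference and are called deep cells, 4187 in OL and 49 in Combo. Because the UMI total, the keratins, the 5 left-out genes and the gene number set who was a member, differences in these are part of the choice and not findings. The mitochondrial share was limited in the same way in low and deep cells, and its values are given as a description.

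The tumors grew under the skin of BALB/c mice from EMT6, a mouse line derived from a mammary carcinoma and labelled TNBC (triple-negative breast cancer). The Olaparib + LLY-283 mice received the PARP inhibitor olaparib at 50 mg/kg with LLY-283, an inhibitor of the arginine methyltransferase PRMT5, at 50 mg/kg in cycles of 3 days on and 4 days off. Combo mice received both agents with an antibody to PD-1, 200 µg every 3 days. Each library held the pooled tumors of 3 mice, and red cells were lysed and dead cells removed on magnetic columns before the droplets were made, so no untreated tumor and no undissociated tissue is represented. With 1 library for each group, treatment, pool of mice and library cannot be told apart. No test across replicates was possible, and every interval below is a 95% interval that covers counting error only.

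Keratins 8 and 18 form the intermediate filaments of simple epithelial cells and of many carcinomas. A droplet with few UMIs can hold a small or quiescent cell, a cell that has lost cytoplasm, a bare nucleus or a fragment, and RNA released by broken cells is captured along with them. These classes of RNA differ in where they sit: Malat1 and Neat1 stay in the nucleus, messenger RNAs of ribosomal proteins are short, stable and cytoplasmic, messenger RNAs of secreted and membrane proteins are held at the endoplasmic reticulum, and mitochondrial transcripts are enclosed in the organelle. The comparison therefore went list by list through RNA classes rather than through single genes.

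Low cells had a median of 1252 UMIs (quartiles 900.0 and 1652, range 508 to 1997) and 765 genes in OL, and a median of 730.0 UMIs (581 and 1020, range 501 to 1997) and 501 genes in Combo. The deep cells had medians of 6981 and 3437 UMIs. Summed over cells, the low profile rested on 460190 UMIs in OL but on 84222 in Combo, so the values of OL are the firmer. Where a pair of values is given without names, OL comes first. The deep profile rested on 34113254 and 308570 UMIs. In Combo, 98.7% of the 3775 keratin cells with 2000 or more UMIs carried at least 1 UMI of a left-out gene, most often S100a9 (93.4% of them) and S100a8 (88.6%), against 66.8% of 12596 in OL. The 49 clear deep cells of Combo were therefore a small remainder, and values against all 3775 or 12596 deep keratin cells are given beside the main ones for the lists whose direction or size depends on that choice.

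**Figure D1:**
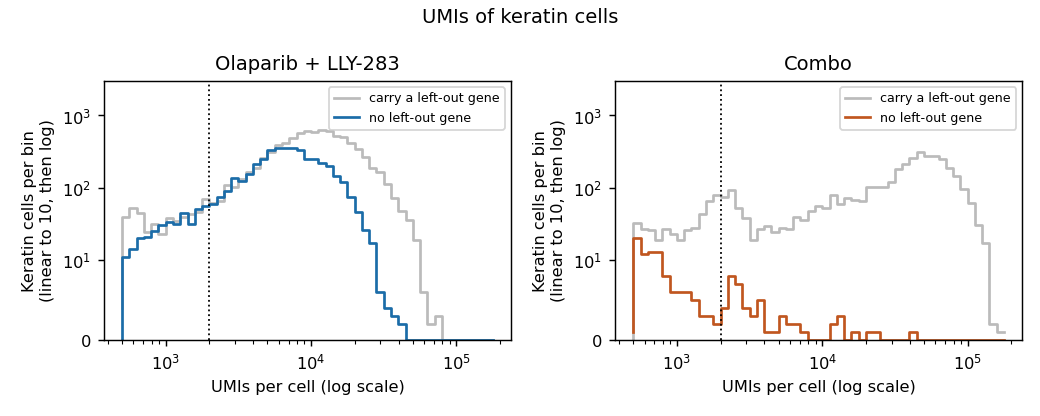
Number of keratin cells (vertical axis, linear up to 10 and logarithmic above) by UMIs per cell (horizontal axis, log scale) in each library, for cells without a left-out gene (colored) and with at least 1 UMI of it (grey). The dotted line marks 2000 UMIs. In Combo the cells without a left-out gene are most numerous near the lowest depths and few on either side of the line (99 below it, 49 above). In OL they peak above it (367 below, 4187 above).

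Among keratin cells without a left-out gene, the low cells were 8.06% (7.28% to 8.89%, Clopper-Pearson) in OL and 66.9% (58.7% to 74.4%) in Combo. With the left-out genes allowed on both sides of the limit, keratin cells under 2000 UMIs were 6.36% of 13452 keratin cells in OL and 11.9% of 4287 in Combo. The left-out genes also removed 489 of 856 keratin cells under 2000 UMIs in OL and 413 of 512 in Combo. No barcode sequence was shared between the low cells of the libraries, and 39 were shared between the libraries as a whole.

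The keratin label rested on few molecules. In OL 246 of 367 low cells (67.0%) held a single keratin UMI, and in Combo 66 of 99 (66.7%). Krt8 supplied most of it, detected in 352 and 86 low cells, while Krt18 was detected in 48 and 21. Barcodes that should lack keratin also held some: of barcodes under 2000 UMIs with 20 or more UMIs of Tyrobp, Ptprc, S100a8 and S100a9, which mark myeloid and other blood cells, 24.8% (21.2% to 28.6%; 137 of 553, median 673 UMIs) in OL and 30.9% (27.3% to 34.7%; 194 of 627, median 1629 UMIs) in Combo carried a keratin UMI. Among barcodes of the same depth range with no left-out gene, 44.8% (41.4% to 48.3%; 367 of 819, median 1128 UMIs) and 39.9% (33.8% to 46.3%; 99 of 248, median 673 UMIs) did.

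As a level, keratin was 584 CPM (537 to 635; 10000 CPM is 1% of the summed UMIs) in those barcodes without left-out genes and 385 CPM (328 to 449) in the barcodes rich in blood cell genes of OL. In Combo these levels were 703 CPM (591 to 829) and 255 CPM (224 to 288). Keratins and left-out genes both belong to the rule, so the gap between these levels is not a finding. The level in barcodes rich in blood cell genes was large enough that a single keratin UMI does not settle what a given barcode held. Other epithelial genes did not separate the low cells: the 10 genes of the epithelial list, which includes Epcam, Cdh1 and Krt7, made up 0.0180% of UMIs in low cells and 0.0192% in deep cells of OL, with Sfn, a 14-3-3 protein of epithelia, supplying 71.1% of it. In Combo the list held 9 UMIs in all low cells.

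Over single genes, CPM was compared between summed low and summed deep cells wherever the mean of both levels would give at least 20 UMIs in the low cells. A gene that is higher in the low cells passes that filter more easily than a gene that is lower, so the counts in the 2 directions are not on equal terms. Of 3503 genes measured in this way in OL, 173 (4.94%) were 2-fold or more higher in low cells and 10 (0.285%) were 2-fold or more lower, with a median log2 ratio of 0.05. Of 622 measured in Combo, 20 (3.22%) were higher and 10 (1.61%) lower, with a median of -0.14. Among 614 genes measured in both libraries, 9 were 2-fold or more higher in both and 0 lower in both. The direction was the same for 103 genes above and 322 genes below a ratio of 1, and opposite for 189. Most single genes thus differed by less than 2-fold.

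The nuclear RNA list, 18 long noncoding RNAs retained in the nucleus or hosting small nucleolar RNAs, differed between low and deep cells in both libraries, but not in the same direction. In OL it took 5.07% of UMIs in low cells (5.00% to 5.13%) and 1.57% in deep cells, a 3.23-fold higher share (log2 ratio 1.69). In Combo it took 1.63% (1.54% to 1.72%) in low cells and 2.17% in the 49 deep cells, a log2 ratio of -0.41. Against all 3775 deep keratin cells of Combo, where the share was 1.21%, the log2 ratio was 0.43. With 2 or more keratin UMIs required (33 low and 38 deep cells), the ratio in Combo was 0.61. The sign in Combo therefore differed with the keratin rule and with the deep cells used, whereas in OL it was the same (1.81 against all 12596, and 1.30 with 2 or more keratin UMIs). In OL, 70 of 367 low cells gave 10% or more of their UMIs to the list. Without them, a choice made after seeing the data, the log2 ratio there was 0.71.

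Malat1, a nuclear speckle RNA on chromosome 19 (5795690 to 5802672, minus strand, GRCm38), carried 95.7% of the list's UMIs in the low cells of OL. Its level was 48474 CPM (47839 to 49114) in low cells and 14255 CPM in deep cells there, and 13607 CPM (12830 to 14418) in low cells and 19856 CPM in deep cells of Combo. Low cells of OL were the highest of the 4 groups, while low cells of Combo and deep cells of OL did not differ beyond counting error. Malat1 in Combo was lower than in the 49 deep cells (log2 ratio -0.54) but higher than in all 3775 (0.35). Neat1, the scaffold of nuclear paraspeckles, was higher in low cells of both libraries: 945 against 518 CPM (log2 ratio 0.87) in OL and 1722 against 953 CPM (0.86) in Combo. In Combo, however, 5 of the 99 low cells held 66.2% of the Neat1 UMIs.

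Kcnq1ot1, the long antisense RNA of the imprinted Kcnq1 domain, was 487 CPM in low and 192 CPM in deep cells of OL (log2 ratio 1.34), and 321 against 243 CPM (0.42, from 27 UMIs in low cells) in Combo. Gas5 and Snhg12, spliced host transcripts of small nucleolar RNAs, gave no such difference: Gas5 was 480 against 509 CPM and 404 against 441 CPM, and Snhg12 was 95.6 against 127 CPM in OL. Of the list, 5 genes were measured in OL, 2 of them 2-fold or more higher, beside 173 of 3503 over all genes (median log2 ratio 0.87 beside 0.05). In Combo 4 were measured, with 0 past 2-fold (median 0.15 beside -0.14). Long noncoding RNAs outside these named genes, 13369 annotated rows without Malat1, Neat1 and the ribosomal RNA loci, made up 1.57% of UMIs in low and 1.15% in deep cells of OL (log2 ratio 0.44), and 1.36% and 1.22% in Combo (0.16). In OL most of the noncoding excess thus lay in Malat1, while in Combo the share of all long noncoding rows was 5.42% in low cells, 3.97% in the 49 deep cells and 2.41% in all deep keratin cells (log2 ratios 0.45 and 1.17), and the ribosomal RNA loci, described next, made up 2.61%, 0.683% and 0.193%.

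Nuclear RNA was unevenly spread over cells. In OL its share of a low cell's UMIs ran from a lower quartile of 0.62% through a median of 2.38% to an upper quartile of 8.06%, with a maximum of 46.6%. The deep cells had quartiles of 0.58%, 1.17% and 2.23%. A share of 5% or more was found in 140 of 367 low cells (38.1%), in 175 of 4187 deep cells (4.18%) and in 199 of 6014 thinned deep cells (3.31%), which are the deep keratin cells, out of all 12596, that still met the rule after each had been thinned at random to the UMI total of a low cell. After thinning the median of deep cells was 1.12%, close to its value before. In Combo the low cells' median was 0.82% (quartiles 0.38% and 1.47%), 5 of 99 low cells reached 5%, and the 49 deep cells were split, with quartiles of 0.19% and 5.05% around a median of 1.05%.

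**Figure D2:**
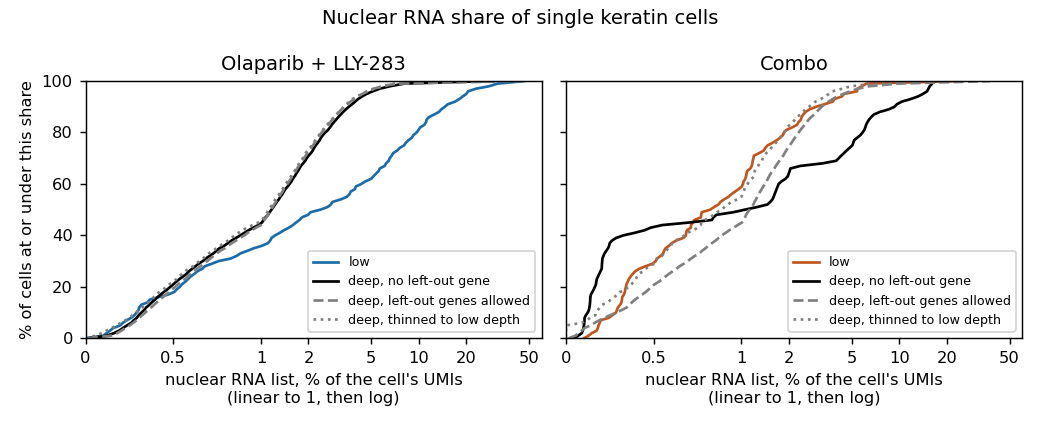
Cumulative share of cells (vertical axis, %) by the nuclear RNA list's share of the cell's own UMIs (horizontal axis, linear to 1% and logarithmic above) in each library, for low cells (colored), deep cells without a left-out gene (black), all deep keratin cells (dashed) and deep cells thinned to low depth (dotted). In OL the low cells' curve parts from the others above a share of 1%, and 38.1% of low cells reach 5%. In Combo the low cells lie near the thinned deep cells.

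Higher in the low cells of both libraries were rows annotated over ribosomal RNA sequence. Ribosomal RNA precursors are made in the nucleolus and carry no poly(A) tail, and in mouse poly(A) libraries reads of the ribosomal unit are commonly counted at Gm26917 and Gm42418, long noncoding rows that sit side by side on chromosome 17 (Gm26917 at 39843013 to 39846341 and Gm42418 at 39846958 to 39848788, both plus strand, GRCm38, with 616 bases between them). AY036118, annotated within Gm42418 on the opposite strand, had 0 UMIs in low and in deep cells. As a list, the ribosomal RNA loci took 0.460% of UMIs in low cells (0.440% to 0.480%) against 0.122% in deep cells of OL, a log2 ratio of 1.91. In Combo they took 2.61% (2.50% to 2.72%) against 0.683%, a log2 ratio of 1.93. The ratios against clear deep cells were thus alike in the 2 libraries, from levels that differed several-fold, while against all deep keratin cells they were 2.14 and 3.76.

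Gm42418 was detected in 338 of 367 low cells at a summed level of 4131 CPM (3947 to 4321), against 1127 CPM in deep cells of OL. In Combo it was detected in 99 of 99 low cells, at 23248 CPM (22230 to 24301) against 6378 CPM. Its log2 ratio was 1.87 in either library. Gm26917, named as a marker of these cells, was 319 CPM (270 to 375) in low and 63.3 CPM in deep cells of OL (log2 ratio 2.34), and 2018 CPM (1726 to 2346) against 246 CPM in Combo (3.03). It marked a minority of low cells: 86 of 367 (23.4%) and 26 of 99 (26.3%) held a UMI, compared with 7.70% and 6.30% of thinned deep cells (32.4% and 40.8% of deep cells at full depth). In Combo, 5 low cells held 74.7% of its UMIs, so its summed level there is the level of a few barcodes.

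Lars2, which encodes the mitochondrial leucyl-tRNA synthetase and is counted with this list because its row moves with ribosomal RNA in many mouse libraries, was 146 against 31.8 CPM (log2 ratio 2.21) and 796 against 207 CPM (1.94). Mir6236, a microRNA locus on chromosome 9 (110281287 to 110281409, plus strand), was 73.9 against 19.1 CPM (1.97) and 736 against 139 CPM (2.40). Its mature product in RefSeq (GRCm38.p6, 110281353 to 110281371) is shown because this row was the only microRNA among the leading genes and its counts come from a library of polyadenylated RNA, which does not capture mature microRNAs by design. The seed, bases 2 to 8, is in capitals.
mmu-miR-6236: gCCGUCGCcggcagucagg
The 19 bases occurred in no annotated transcript of GENCODE M21 other than Mir6236 itself, on either strand. Lars2 and Mir6236 passed the filter in both libraries only through their level in low cells, so their ratios add no support to the other rows. Which RNA was counted at Lars2 and Mir6236 was not tested.

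In the summed profiles, mitochondrial transcripts were higher in the low cells of both libraries, and the mitochondrial ribosomal RNAs more so than the messenger RNAs. Since the mitochondrial share was limited to under 20% in both low and deep cells, the rule bounded these values without fixing their direction. The 13 protein-coding genes together took 1.81% of UMIs (1.77% to 1.84%) in low and 0.767% in deep cells of OL (log2 ratio 1.23), and 1.63% (1.55% to 1.72%) and 1.09% in Combo (0.58, or 0.85 against all deep keratin cells). Of the 9 measured in the former, mt-Nd6 passed the filter only through its level in low cells, so members past 2-fold are not counted there. Their median log2 ratio was 1.32, beside 0.05 over all genes. In Combo 0 of 6 passed 2-fold, beside 20 higher and 10 lower of 622 over all genes (median 0.61 beside -0.14). mt-Cytb, a subunit of complex III and the most abundant of them, was 7549 against 3209 CPM and 6424 against 4284 CPM. mt-Nd6, the complex I subunit encoded on the opposite strand from the others, was 82.6 against 24.8 CPM in OL and had too few UMIs in Combo (8 in low and 6 in deep cells) to be measured. mt-Nd5, also of complex I, was 550 against 204 CPM in OL and 297 against 324 CPM in Combo, the only measured member with a ratio below 1. Medians over single cells lay closer together than the sums. In OL the 13 genes took 1.03% in the median low cell (quartiles 0.51% and 2.41%) and 0.72% in the median deep cell (0.49% and 1.00%). In Combo the medians were 0.90% in low, 0.72% in deep and 0.83% in all deep keratin cells. With a mitochondrial limit of 10% the summed log2 ratios were 0.78 and 0.40.

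mt-Rnr1 and mt-Rnr2, the ribosomal RNAs of the mitochondrial ribosome, gave larger differences. mt-Rnr2 was 16610.5 CPM (16240 to 16987) in low and 3144 CPM in deep cells of OL (log2 ratio 2.40), and 17454 CPM (16573 to 18370) against 9726 CPM in Combo (0.84). mt-Rnr1 was 5424 against 982 CPM (2.47) and 8727 against 3234 CPM (1.43). Levels of mt-Rnr2 in low cells were alike in the libraries, and it was the deep cells that differed: against all deep keratin cells, in which it was 2684 and 2504 CPM, the log2 ratios were 2.63 and 2.80. Gm28438, a pseudogene in a nuclear copy of mitochondrial sequence on chromosome 1, was 426 against 154 CPM and 582 against 318 CPM, and its counts are uncertain because reads can be split between it and the mitochondrial genome. Nuclear genes of the respiratory chain did not follow the mitochondrial ones: the list of 86 took 2.20% of UMIs in low and 2.69% in deep cells of OL (log2 ratio -0.29) and 2.47% against 2.54% in Combo (-0.04, or -0.14 against all deep keratin cells).

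Ribosomal protein genes were lower. They took 15.3% of UMIs (15.2% to 15.4%) in low and 22.7% in deep cells of OL (log2 ratio -0.57), and 14.9% (14.6% to 15.2%) against 19.1% in Combo (-0.36; -0.54 against all deep keratin cells, 21.6%). All 78 genes of the list were measured in OL and all 78 had a ratio below 1, beside 1606 of 3503 over all genes. None passed 2-fold, and the median log2 ratio was -0.58 (beside 0.05 over all genes). In Combo 68 of 75 measured were below 1, beside 390 of 622 over all genes, again with 0 past 2-fold (median -0.36 beside -0.14). The difference was thus shared and small for each gene. Rpl41, the shortest ribosomal protein and the most abundant row of the list, was 5637 against 8729 CPM and 5628 against 7337 CPM. Rps4x was 2690 against 4644 CPM and 2197 against 3387 CPM.

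Single cells varied as well. A low cell of OL gave a median of 14.7% of its UMIs to ribosomal proteins (quartiles 9.98% and 20.0%), against 22.2% (19.6% and 24.9%) in deep cells and 22.4% in thinned deep cells. In Combo the medians were 16.1% (13.5% and 17.8%) in low, 19.5% (9.63% and 22.2%) in deep and 21.9% in thinned deep cells. The ranges between quartiles of low and deep cells overlapped narrowly in OL and widely in Combo.

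Of the 12 genes that were lowest in both libraries, ranked by whichever of the 2 ratios was nearer to 1, most were ribosomal proteins, among them Rpl17, Rps4x, Rpl35, Rpl28, Rpl15, Rps26 and Rpl18. Those outside that class were Edf1, a coactivator that also binds stalled ribosomes (259 against 431 CPM and 214 against 425 CPM), Ost4, a very small subunit of the oligosaccharyltransferase (278 against 455 CPM and 249 against 506 CPM), Eef1d, a subunit of translation elongation factor 1 (443 against 697 CPM and 439 against 684 CPM), and Timm13, a small chaperone of the mitochondrial intermembrane space (180 against 283 CPM and 214 against 327 CPM). In Combo each of these last 4 rested on 37 or fewer UMIs in low cells.

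Length of the transcript went with the ratio. Measured protein-coding genes other than ribosomal protein and mitochondrial genes were put in 5 groups of about equal size by their longest annotated transcript (GENCODE M21). In OL, with 3354 genes, the median log2 ratio was -0.23, -0.07, 0.07, 0.22 and 0.39 from the shortest group (median length 1178 bases) to the longest (6886 bases), and 197 of 671 genes in the shortest group but 525 of 671 in the longest were above a ratio of 1. In Combo, with 525 genes, the medians were -0.22, -0.23, -0.20, -0.03 and 0.07, with 29 of 105 and 60 of 105 above 1. Against thinned deep cells the shortest and longest groups had medians of -0.22 and 0.36 in OL and -0.34 and 0.16 in Combo. The trend was flatter in Combo against clear deep cells. The groups of Combo also held fewer genes and shorter transcripts (median length 857 to 5002 bases). Since the filter favours genes that are high in low cells, the groups were also drawn, after seeing the data, from genes with at least 20 expected UMIs at the level of the deep cells alone: the shortest and longest groups then had medians of -0.24 and 0.26 in OL and -0.29 and -0.06 in Combo. Genes are not independent replicates, and the library's capture of transcript ends was not examined, so the ordering is a description.

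**Figure D3:**
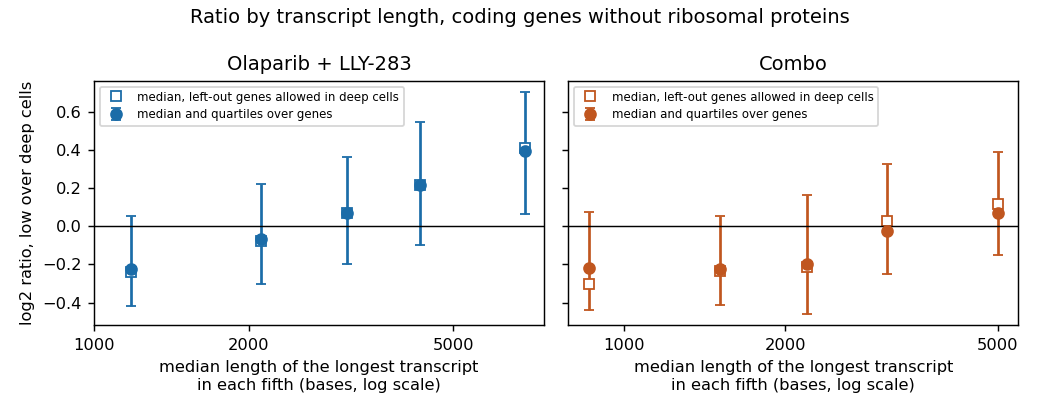
Log2 ratio of CPM in low over deep keratin cells (vertical axis) for protein-coding genes without ribosomal proteins, in 5 groups by transcript length (horizontal axis, median length in bases, log scale), in each library. Filled points with bars are the median and quartiles over genes, and open squares are the medians with left-out genes allowed in deep cells. The medians go from -0.23 to 0.39 in OL and from -0.22 to 0.07 in Combo, and the quartiles of neighbouring groups overlap.

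Short-lived transcripts, immediate-early and other messenger RNAs that decay within minutes to hours, differed little. The list of 55 took 1.17% of UMIs in low and 1.07% in deep cells of OL (log2 ratio 0.12) and 0.860% against 0.779% in Combo (0.14, but -0.25 against all deep keratin cells). Of 43 measured in the former, 1 was 2-fold or more higher and 0 lower, beside 173 and 10 of 3503 over all genes (median 0.18 beside 0.05). Of 14 in Combo 2 were higher and 0 lower, beside 20 and 10 of 622 (median 0.32 beside -0.14). The filter favours genes that are high in low cells, so these counts are not a result about the list. Jun and Fos, subunits of the AP-1 factor, were not alike: Jun was 997 against 936 CPM and 475 against 538 CPM, whereas Fos was 895 against 1166 CPM and 368 against 703 CPM. Fos was thus lower in the low cells of both libraries. Cxcl2, a neutrophil-attracting chemokine that tumor cells and myeloid cells both make, was among the highest genes: 287 against 79.5 CPM and 475 against 139 CPM. In Combo Cxcl2 passed the filter only through its level in low cells. Against all deep keratin cells its log2 ratios were 0.74 and 0.19, since deep cells with a left-out gene carried more of it.

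Chaperones and translocon subunits of the endoplasmic reticulum were modestly higher in the summed profiles. The list of 23 took 1.04% against 0.850% of UMIs in OL (log2 ratio 0.29) and 0.988% against 0.793% in Combo (0.32), with 15 of 21 and 14 of 15 measured members above a ratio of 1 (beside 1897 of 3503 and 232 of 622 over all genes) and 0 past 2-fold. Against all deep keratin cells of Combo the log2 ratio was 0.18, with 10 of the 15 above 1. The median low cell of OL gave 0.815% of its UMIs to the list and the median deep cell 0.826%, and in Combo the medians were 0.749% in low cells, 0.659% in the 49 deep cells and 0.7997% in all 3775 deep keratin cells. Hspa5, the main chaperone of the compartment, was 1326 against 831 CPM and 1306 against 817 CPM, a log2 ratio of 0.68 in either library. Hsp90b1 was 1832 against 1257 CPM and 1508 against 1125 CPM. Cytoskeleton genes were lower: the list of 20 took 2.76% against 3.37% (-0.29) and 2.73% against 3.40% (-0.32). Vim, the intermediate filament of mesenchymal cells, was 4902 against 6590 CPM and 3871 against 5898 CPM, and Actb was 7708 against 8778 CPM and 5046 against 7139 CPM.

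For most of the stress and growth lists the low cells were close to the deep cells or the libraries differed. ATF4 stress genes were modestly higher in the low cells of both. Glycolysis and hypoxia genes took 1.27% against 1.58% of UMIs in OL (log2 ratio -0.31) and did not differ beyond counting error from the 49 deep cells of Combo (log2 ratio interval -0.09 to 0.09). Against all deep keratin cells of Combo the list was lower in low cells (-0.18, interval -0.26 to -0.10). Gapdh was 2295 against 3751 CPM and 2826 against 3063 CPM. ATF4 stress genes took 0.190% against 0.170% in OL (0.16, interval 0.06 to 0.26). In Combo they took 0.205% against 0.152% (0.43, interval 0.17 to 0.69, or 0.24 against all deep keratin cells). Atf4 itself was 354 against 258 CPM and 368 against 243 CPM. For p53 and cell death genes the shares were 0.130% against 0.151% (-0.21) and 0.144% against 0.134% (0.10, interval -0.21 to 0.39), so this list was lower in the low cells of OL and not detectably different in Combo. S phase genes gave -0.34 and 0.14 (interval -0.15 to 0.41), G2 and mitosis genes -0.07 (-0.16 to 0.02; -0.26 against all deep keratin cells) and 0.06 (-0.17 to 0.28), and interferon-stimulated genes -0.09 (-0.21 to 0.03) and -0.08 (-0.37 to 0.20). Heat shock and splicing factor genes had opposite signs in the libraries, at -0.38 and 0.13 and at 0.16 and -0.16, each a difference of less than 1.5-fold, and heat shock genes in Combo were at -0.19 against all deep keratin cells.

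**Figure D4:**
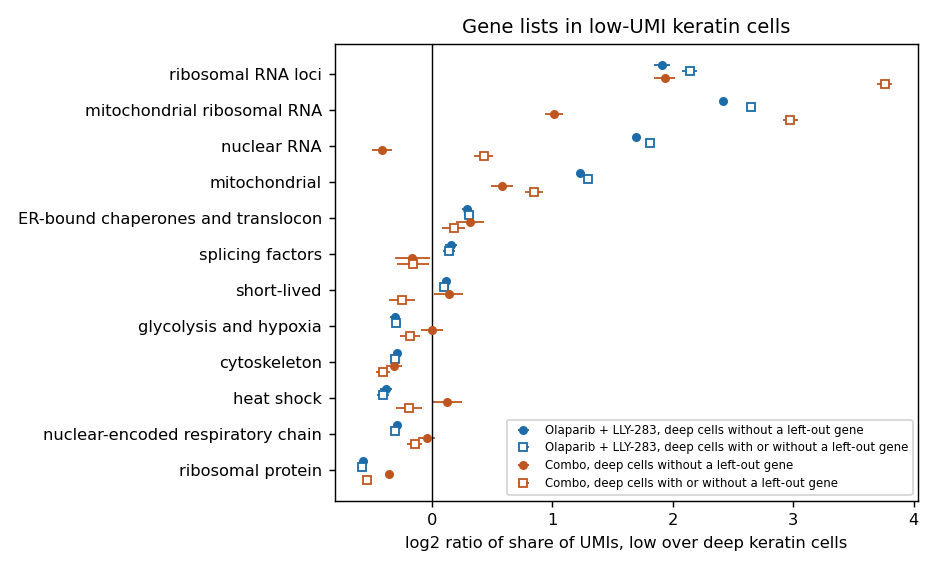
Log2 ratio of each list's share of UMIs in low over deep keratin cells (horizontal axis) for 12 lists (vertical axis), with 95% intervals for counting error. Filled circles use deep cells without a left-out gene, open squares all deep keratin cells, blue OL and orange Combo. Ribosomal RNA loci and mitochondrial lists lie above 0 and ribosomal proteins below 0 in both libraries, while nuclear RNA in Combo changes side with the deep cells used.

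Transcripts of other cell types differed between low and deep cells, in directions that depended on the list and on the deep cells used. The 5 left-out genes are 0 in members by the rule, but the list of 11 macrophage markers took 0.124% of UMIs in low cells of OL against 0.0165% in deep cells (log2 ratio 2.91, or 1.37 against all deep keratin cells). Only 4 of the 11 passed the filter on low values, some of them through their level in the low cells alone, so their ratios are not counted here. Apoe, its most abundant gene there, was 417 against 28.4 CPM and supplied 33.7% of it, and 0 of the 11 markers were at 0. Only 13 of 367 low cells held 10 or more macrophage UMIs, and these held 68.9% of the list's total. In Combo the list took 0.116% against 0.0327%, led by Lyz2, a lysozyme of myeloid cells, with Adgre1 at 0. Against all deep keratin cells of Combo, in which it took 0.146%, the list was lower in the low cells (log2 ratio -0.33, interval -0.63 to -0.04). Lyz2 was 389 against 54.7 CPM in OL and 427 against 120 CPM in Combo, where all deep keratin cells had 699.8 CPM. Tmsb4x, an actin-binding peptide abundant in blood cells, was 867 against 91.6 CPM and 1365 against 506 CPM. Grn, a lysosomal glycoprotein, was 304 against 152 CPM and 356 against 185 CPM. In Combo, Lyz2 and Grn passed the filter only through their level in low cells.

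Muscle transcripts were found in few low cells, and in those they were abundant. In Combo the list of 6 muscle genes took 1.74% of UMIs in low cells (1468 UMIs) and 0.00356% in deep cells (11 UMIs). There, 9 of 99 low cells held 98.2% of them, with 43 to 428 muscle UMIs each and 6.70% to 24.0% of the cell's UMIs, and 9 keratin UMIs between them, 1 in each. OL had 100 muscle UMIs in low cells, 60 of them in 2 cells. Acta1, the actin of skeletal muscle and the highest-ranked gene over both libraries, was 8062 CPM in low and 16.2 CPM in deep cells of Combo, and 91.3 against 11.8 CPM in OL. It passed the filter in both libraries only through its level in low cells. No muscle marker was at 0 in the low cells of either library. A barcode with a muscle profile and 1 keratin UMI passes the rule, and leaving out cells with 10 or more muscle UMIs, a choice made after these values were seen, gave 13 genes 2-fold or more higher in Combo in place of 20. In OL this choice left 365 low and 4182 deep cells, so too few were removed to move a list to the other side. In Combo it left 90 low and 49 deep cells. The log2 ratios there were -0.37 for ribosomal proteins, 0.72 for mitochondrial genes and -0.29 for nuclear RNA.

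Fibroblast markers took 0.237% against 0.108% of UMIs in OL and 0.159% against 0.173% in Combo. The Combo log2 ratio was -0.12 (-0.41 to 0.15), but 0.18 (-0.07 to 0.43) against all deep keratin cells and 0.58 (0.31 to 0.84) against thinned deep cells. Col3a1 led the list at 1030 against 499.8 CPM and 712 against 817 CPM, followed by Col1a1 at 887 against 386 CPM and 665 against 589.8 CPM. The rule had set Col5a2 to 0, and Thy1 and Fgf7 were also at 0 in both libraries. Neutrophil markers gave 36 and 29 UMIs, mostly Il1b, with log2 ratios of 1.80 and 3.03 against clear deep cells, which lack S100a8 and S100a9 by the rule, and of -1.90 and -1.43 against all deep keratin cells. Endothelial markers gave 11 and 10 UMIs. In Combo they were lower in low cells than in the 49 deep cells (0.0119% against 0.0463%, 143 UMIs) and higher than in all deep keratin cells (0.00159%). T and NK markers gave 11 and 0 UMIs, B cell markers 1 and 0, dendritic markers 2 and 1, osteoclast markers 101 and 17, and red cell markers 0 and 4. With cells holding 10 or more UMIs of any such list left out of low and deep cells alike, another choice made after seeing the data, 331 and 88 low cells remained, and the log2 ratios were 1.35 and 0.71 for the mitochondrial list and -0.61 and -0.34 for ribosomal proteins. What part RNA of other cells had in the remaining differences was not tested.

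Across the range of depth the lists did not step at 2000 UMIs alike. In OL nuclear RNA took 6.97% of UMIs in cells of 500 to under 1000 UMIs, 4.58% up to 2000, 1.95% up to 5000, 1.65% up to 10000, 1.45% up to 20000 and 1.16% above. Ribosomal proteins took 14.3%, 15.5%, 21.2%, 22.9%, 22.9% and 23.0% over the same bins. Most of either change therefore lay below 5000 UMIs, with a slow drift above. Just inside the limit, at 1900 to under 2000 UMIs (30 cells), nuclear RNA was 4.36% and ribosomal proteins 15.6%, and just outside, at 2000 to under 2100 (25 cells), 2.45% and 18.0%. With left-out genes allowed (61 and 58 cells), nuclear RNA was 3.63% and 3.21% and ribosomal proteins 15.7% and 17.6%. The keratins, used by the rule, fell from 1640 to 877 CPM from the lowest to the highest bin. In Combo nuclear RNA followed no such order in cells without a left-out gene. It was 1.08% in the lowest bin (73 cells), 2.39% in the next (26 cells) and 3.46% in the first above the limit (32 cells). The bins above held 8, 6 and 3 cells. Ribosomal proteins in Combo took 16.1%, 13.3%, 15.3%, 20.7%, 21.2% and 20.5% over the bins, so they were higher in the deepest bins there too. Combo had 1 cell at 1900 to under 2000 UMIs and 0 at 2000 to under 2100. The ribosomal RNA loci went from 0.587% in the lowest bin down to 0.0694% in the highest in OL, and from 2.25% up to 3.10% in the second bin and down to 0.259% in Combo. With left-out genes allowed, the bins of Combo held 227, 285, 388, 242, 405 and 2740 cells. Nuclear RNA in them was 1.82%, 3.43%, 3.79%, 2.74%, 1.44% and 1.16%, so it fell with depth above 5000 UMIs there too.

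**Figure D5:**
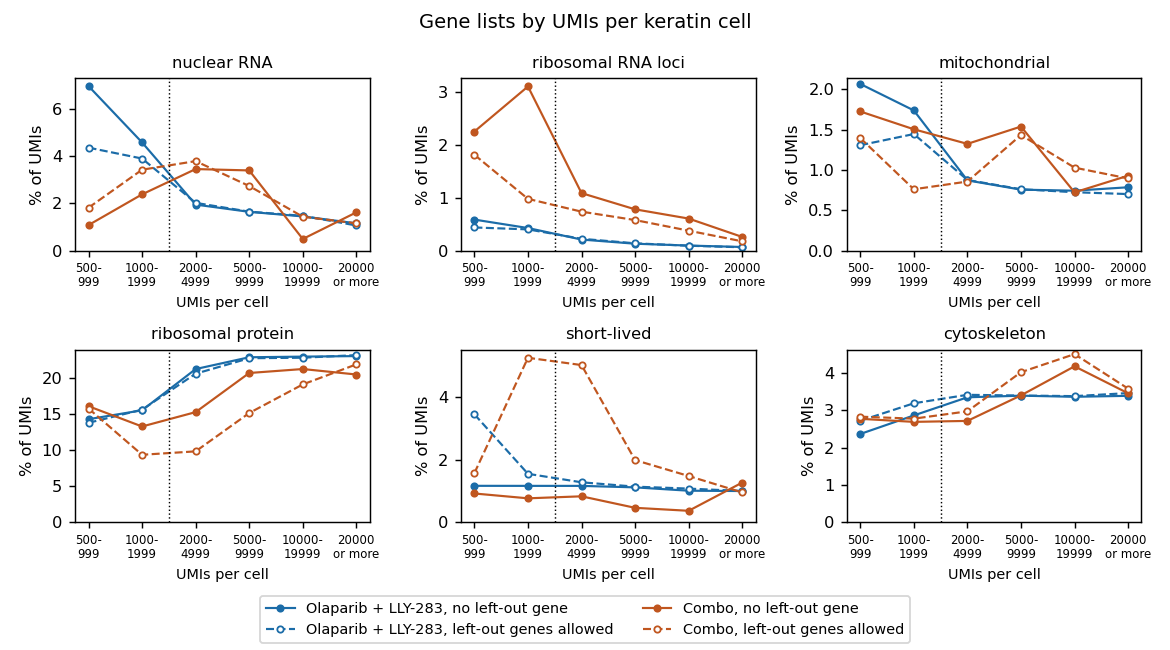
Share of summed UMIs (vertical axis, %) of 6 lists in keratin cells binned by UMIs per cell (horizontal axis), without a left-out gene (solid) and with left-out genes allowed (dashed), in OL (blue) and Combo (orange). The dotted line marks 2000 UMIs. In OL nuclear RNA declines from 6.97% to 1.16% and ribosomal protein climbs from 14.3% to 23.0%. In Combo the solid line rests on 32, 8, 6 and 3 cells above the limit.

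Between the libraries, the low cells of Combo and of OL were compared over 618 genes that would give at least 20 UMIs in the smaller library. Of these, 19 (3.07%) were 2-fold or more higher in Combo and 16 (2.59%) lower. The 6 highest were all muscle genes, Tnni2, Ckm, Mylpf, Acta1, Des and Myl1, of which Ckm was 3111 against 19.6 CPM. Of these, at least Ckm and Acta1 passed the filter only through their level in Combo. With the cells of 10 or more muscle UMIs left out, 9 genes were higher and 9 lower. Ribosomal RNA rows were higher in Combo in low cells and in deep cells alike: for Gm42418 the log2 ratio of Combo over OL was 2.49 in low cells, 2.50 in deep cells and 0.93 over all deep keratin cells. For Gm26917 these were 2.66, 1.97 and -0.11.

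Malat1 was the lowest in Combo, at a log2 ratio of -1.83 in low cells, beside 0.48 in deep cells and -0.28 over all deep keratin cells. It was followed by Igfbp7, a secreted binding protein of insulin-like growth factors (154 against 499.8 CPM), Atp6v0b, a subunit of the vacuolar proton pump (154 against 402 CPM), Slc38a2, an amino acid transporter induced by ATF4 (214 against 528 CPM), Fos (368 against 895 CPM) and Ly6a, the Sca-1 surface antigen (142 against 349.9 CPM). These levels in Combo rested on 13, 13, 18, 31 and 12 UMIs, and all but Fos passed the filter through their level in OL. The same log2 ratios in deep cells were 0.47, 0.20, 0.07, -0.73 and 0.58. Ribosomal protein genes took nearly the same share in the low cells of both libraries (14.9% and 15.3%), as did mitochondrial genes (1.63% and 1.81%) and cytoskeleton genes (2.73% and 2.76%). Low cells of the libraries were thus near each other in these lists and apart in nuclear RNA, ribosomal RNA and muscle transcripts. Muscle genes took 0.0217% of UMIs in the low cells of OL and 1.74% in those of Combo. In barcodes under 2000 UMIs with neither a keratin UMI nor a left-out gene, they took 0.502% in OL and 0.879% in Combo.

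A comparison within the same depth range was with barcodes under 2000 UMIs that had neither a keratin UMI nor a left-out gene. There were 452 in OL (median 1042.5 UMIs) and 149 in Combo (median 630.0 UMIs). In OL they gave 6.13% of UMIs to nuclear RNA, 0.487% to ribosomal RNA loci, 2.03% to mitochondrial genes and 14.7% to ribosomal proteins, beside 5.07%, 0.460%, 1.81% and 15.3% in the low keratin cells. In Combo they gave 2.06%, 1.95%, 1.40% and 15.0%, beside 1.63%, 2.61%, 1.63% and 14.9%. In OL the low keratin cells were closer to these barcodes than to the deep keratin cells in each of these 4 lists, by either choice of deep cells. In Combo this held for the ribosomal RNA, mitochondrial and ribosomal protein lists, while for nuclear RNA (1.63%) the low cells lay between these barcodes and all deep keratin cells (1.21%). Keratin cells under 2000 UMIs with a left-out gene, 489 and 413, gave 3.14% and 3.23% of UMIs to nuclear RNA. They gave 0.371% and 0.967% to ribosomal RNA loci, 1.09% and 0.813% to mitochondrial genes, and 15.1% and 10.4% to ribosomal proteins. Short-lived transcripts took 2.70% and 4.86% in them. Their nuclear RNA share was thus below that of the low cells in OL and above it in Combo.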

How the data were processed

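Values were whole-number UMI counts per gene and barcode, deposited by the authors as filtered Cell Ranger matrices on mm10 (file headers name version 6.1.2; the study's methods name 7.0.0), without normalization or doublet removal that the sources used here state. The submitters' notes also name bcl2fastq 5.0.1 and Seurat 4.1.0. Counts were read in Python 3.11.15 and summed over cells of each library. CPM was a gene's share of that sum. Log2 ratios of genes had 0.5 UMI added, and list ratios had none. Intervals were exact (Poisson, Clopper-Pearson, or conditional binomial for ratios, scipy 1.17.1). The members and gene lists were chosen with earlier results of these data known. Cyr61 and Ctgf of the short-lived list were read under their newer symbols Ccn1 and Ccn2, and Rn18s-rs5 was not among the 55450 identifiers. Positions and lengths came from GENCODE M21, in which all 55450 were found. Named genes were the measured members of the nuclear RNA, ribosomal RNA and mitochondrial lists, Krt8, Krt18, the left-out genes, the 12 highest and 12 lowest in both libraries, up to 4 members of other lists with most UMIs, and the 6 highest and lowest between libraries. Not every gene named by this rule is reported here. Scrublet (scanpy 1.11.5) marked 0 of 16029 and 0 of 5956 cells, which means that it did not work here, and no doublets were removed. The counting rule and thinning were tested on simulated data. Depth was 147214934 and 162522700 UMIs.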

Additional observations from a re-analysis of the deposited data

Results flagged for a closer look

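The nuclear RNA list had opposite signs in the libraries, with log2 ratios of low over deep cells of 1.69 for Olaparib + LLY-283 (OL) and -0.41 for Combo, and intervals that do not reach 0. Heat shock genes differed in the same way (-0.38 and 0.13), as did splicing factors (0.16 and -0.16). None of these differences between libraries was tested, since there is 1 library for each group. In Combo nuclear RNA was at 0.43 against all 3775 deep keratin cells and at 0.61 with 2 or more keratin UMIs required, heat shock genes were at -0.19 against all deep keratin cells, and splicing factors at -0.15.

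Keratin barcodes with 20% or more mitochondrial UMIs stand outside the comparison: 27 in OL and 478 in Combo. Of these, 14 and 239 had under 2000 UMIs and no left-out gene, the latter being more than the 99 low cells of Combo. Those 239 barcodes had a median of 703 UMIs and gave 0.533% of UMIs to nuclear RNA, 1.40% to ribosomal RNA loci and 11.3% to ribosomal proteins.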

How the results depend on the processing

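Values below are log2 ratios of low over deep cells, for OL first, unless counts are named, and causes were not tested. Ribosomal proteins stayed below 0 and mitochondrial genes above 0 in both libraries under each alternative run, and nuclear RNA stayed above 0 in OL. Nuclear RNA in Combo turned positive with 2 or more keratin UMIs (0.61), left-out genes allowed in deep cells (0.43) and deep cells thinned (0.39), and, chosen after seeing the data, with low cells of 1000 or more UMIs and left-out genes allowed (0.98). Short-lived transcripts in Combo turned negative with left-out genes allowed (-0.25) and with thinning (-0.0773). With low cells under 1000 UMIs, nuclear RNA was 2.15 and -1.002, ribosomal proteins -0.67 and -0.25, and mitochondrial genes 1.43 in OL. With a mitochondrial limit of 10%, nuclear RNA was 1.63 and -0.31, ribosomal proteins -0.52 in OL, and mitochondrial genes 0.78 and 0.40. With 2 or more keratin UMIs, nuclear RNA was 1.30 in OL, ribosomal proteins -0.49 and -0.40, mitochondrial genes 0.98 and 0.74, and short-lived transcripts 0.42 in Combo. With left-out genes allowed, nuclear RNA was 1.81 in OL, ribosomal proteins -0.54 in Combo, and mitochondrial genes 1.29 and 0.85. With thinning in Combo, ribosomal proteins were -0.57 and mitochondrial genes 0.89. Averaging shares over cells gave -1.10, -0.13, 0.41 and 0.30 in Combo for nuclear RNA, ribosomal proteins, mitochondrial genes and short-lived transcripts. Scaling without mitochondrial genes, Malat1 and ribosomal RNA loci gave 1.79 for nuclear RNA, 1.34 for mitochondrial genes, 0.22 for short-lived transcripts and -0.47 for ribosomal proteins in OL, and -0.31 for the last in Combo, and moved the median of all genes in OL from 0.05 to 0.15.

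Of the alternatives added after seeing the data, leaving out cells with muscle transcripts gave -0.29 for nuclear RNA and 0.72 for mitochondrial genes in Combo. Leaving out cells with transcripts of other cell types gave -0.61 for ribosomal proteins, 1.35 for mitochondrial genes and 0.0705 for short-lived transcripts in OL, and -0.56 for nuclear RNA, 0.71 for mitochondrial genes and 0.73 for short-lived transcripts in Combo. Leaving out low cells with 10% or more nuclear RNA gave 0.71 and -0.72 for nuclear RNA, and low cells of 1000 or more UMIs with left-out genes allowed gave 1.67 in OL.

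Counts of genes past 2-fold depended on the filter. In OL, 173 higher and 10 lower became 959 and 72 with 5 or more expected UMIs, 41 and 1 with 50 or more, 40 and 17 with low cells under 1000 UMIs, 102 and 2 with the 10% mitochondrial limit, and 45 and 1 with 2 or more keratin UMIs, with 4 lower under the other scaling and 6 with a pseudocount of 1. In Combo, 20 and 10 became 284 and 114 with 5 or more and 12 and 3 with 50 or more expected UMIs, with 9 higher at 2 or more keratin UMIs and 13 without muscle cells. Between libraries, 19 and 16 became 261 and 117 with 5 or more, 11 and 3 with 50 or more, 3 and 2 with 2 or more keratin UMIs, 9 and 9 without muscle cells and 12 and 9 without cells of other types, with 8 lower for low cells under 1000 UMIs.

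The share of low cells among clear keratin cells in OL was 2.81% under a limit of 1000 UMIs, 7.19% with the 10% mitochondrial limit and 3.16% with 2 or more keratin UMIs, the last being 46.5% in Combo. With left-out genes barred in low cells but allowed in deep cells, low cells were 2.83% and 2.56% of both together, a share that applies different rules to its 2 sides. Leaving out doublets gave no value, since the caller marked 0 cells. Leaving out the top 5% of doublet scores instead, chosen after seeing the data, gave 1.69 and -0.39 for nuclear RNA and kept the ribosomal protein, mitochondrial and short-lived lists on their side of 0. That step removed 4 of 367 low and 99 of 4187 deep cells in OL, and 5 of 99 low and 0 of 49 deep cells in Combo. With so few removed, it cannot show what doublets contribute. By transcript length, the longest group stayed above the shortest with 5 or more expected UMIs (0.49 against -0.12, and 0.36 against -0.12) and with 50 or more (0.18 against -0.26, and -0.05 against -0.33). No paired analysis was possible because each group had 1 library.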

Other observations

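The low cells were not of a kind in OL. Sorted by the nuclear RNA share of each cell, 131 cells had under 1%, 96 had 1% to under 5% and 140 had 5% or more, with median depths of 1313, 1281 and 1110 UMIs. Ribosomal proteins took 19.0%, 16.3% and 10.5% of summed UMIs in these sets, and cytoskeleton genes 3.65%, 2.93% and 1.68%. Mitochondrial genes took 0.957%, 1.89% and 2.654%, and ribosomal RNA loci 0.324%, 0.492% and 0.582%. The sets differ in nuclear RNA by construction, and shares of a cell add up to the whole, so part of the lower shares follows from the UMIs that nuclear RNA took in the last set. In Combo the sets held 58, 36 and 5 cells, with ribosomal proteins at 16.3%, 13.7% and 10.0%, ribosomal RNA loci at 1.45%, 3.61% and 7.01%, and muscle genes at 2.92%, 0.183% and 0.0171%. The last set of Combo is too small to describe beyond its 5 cells. No test was made on these sets, which were drawn from the measured values.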
